A study of Mus musculus with 9 samples.

Results

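The Bcl2 family was described here by 10 genes, chosen by symbol from the 24736 genes of each table. Grouped here as guards against cell death were 4 of them (Bcl2l10, Bcl2, Bcl2l1 and Mcl1). The others were 3 pore formers (Bax, Bak1 and Bok) and 3 genes of BH3-only proteins (Bid, Bcl2l11 and Bbc3). All 10 had a row in each of the 9 tables, and 8 of them had enough counts to be tested. Each library held RNA of 15 oocytes arrested in the second meiotic metaphase, taken from a single female ICR mouse. The labels give the age as 4 to 5 weeks, which is shorter than the 6 weeks of stressors given to the stressed mice. The age of those mice at collection is therefore not known. The 3 control mice received no stress. The 3 stress mice were exposed daily to a stressor such as tail pinch, cold swimming, restraint or food deprivation in a chronic unpredictable mild stress (CUMS) model, which the protocol puts at 6 weeks. The 3 mice called KYZY here had the same 6 weeks of stressors and then 0.1 ml of a decoction of the herbal recipe Kai Yu Zhong Yu by gavage each day for 4 weeks. Ovulation was induced in every group with PMSG followed by hCG, 7.5 IU each, and hyaluronidase was used to strip the cumulus 16 hours after the hCG. The sources used here name no stressed group that was given a vehicle by gavage, and they describe the sequencing of the KYZY libraries (a NovaSeq instrument) differently from that of the other 6, so the recipe, the gavage, the added weeks and the sequencing run cannot be told apart.

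Bcl2 family proteins decide whether the outer membrane of mitochondria is opened, the step that releases cytochrome c and sets off caspases. Guards hold pore formers in check by binding them, pore formers assemble into openings in the membrane, and BH3-only proteins set the process going by occupying the guards or by activating the pore formers. In the ovary this balance is known for its part in the loss of germ cells and follicles. Bcl2l10, also called Diva or Boo, is a family member known for its expression in oocytes. Its place among the guards is a grouping used here, and the action of its protein was not measured.

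All 14 oocyte markers examined, among them Zp3, Gdf9 and Mos, were above the detection floor in each of the 9 libraries, and their summed level was 18592 to 31836 CPM (a gene's count relative to the scaled library total). Ddx4, from the same oocyte list, was at 189 CPM in control 3, 167 in KYZY 3 and 15.7 to 23.7 in the other 7 libraries. Total counts were 46324094 to 106990821 per library. A single read pair appeared to be worth about 4 counts, since 305 to 556 genes per library had a value of 4 and 53 to 207 had a value of 3. The floor was therefore set at 3 read pairs or 12 counts, which was 0.105 to 0.245 CPM. This floor and the intervals on counts cover counting error only: the cDNA was amplified and carries no molecular identifiers. Control 3, stress 3, KYZY 2 and KYZY 3 stood apart from the other 5 libraries: 16 to 19 of 22 markers of cumulus and granulosa cells were above the floor there and 8 to 12 in the others, with summed levels of 898 to 1771 CPM and 622 to 765 CPM. Tnfaip6 and Ptx3, which cumulus cells make around ovulation, were at 0 in those 5. Large parts of the cumulus sums came from Serpine2 (359 to 970 CPM over the 9 libraries) and Sdc1 (155 to 619 CPM). Ranges of Cyp19a1, Nr5a2, Serpine2, Sdc1, Star and Lhcgr, from the same list, overlapped between the 4 libraries and the other 5. So did those of Fshr, Inhbb, Foxl2, Amh and Amhr2. The rest of the list, with Cyp11a1 and Inha among them, was higher in the 4 libraries without overlap. Above the floor over the 9 libraries were 3 to 8 of 9 oviduct markers (summed 265 to 502 CPM), 2 to 7 of 10 blood and immune markers (1.17 to 65.4 CPM) and 4 to 10 of 10 stromal and endothelial markers (20.3 to 73.7 CPM). Control 3 and KYZY 3 stood apart in the last, with 10 of 10 markers and 63.0 and 73.7 CPM against 4 to 8 markers and 20.3 to 31.2 CPM in the other 7. Col1a1, Col1a2, Col3a1, Dcn, Acta2 and Lum were higher in control 3 and KYZY 3 without overlap, while Pdgfra, Cdh5 and Kdr overlapped. Pecam1 was lowest in control 3 and KYZY 3, at 17.0 and 14.7 CPM. Cdh1 alone was at 243 to 500 CPM in the oviduct sum, and Pecam1 at 14.7 to 27.3 CPM in the stromal and endothelial sum. In bulk RNA, a larger share of other cells and more RNA per cell cannot be told apart.

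Bcl2l10 was by far the most abundant member in every library. Its level per kilobase of transcript, the scale on which genes of different length can be compared, was 5331 ± 875 CPM per kb (SD, n = 9), and it ranked between 4 and 6 among 24204 genes with a known length in each library. Bcl2l1, which encodes the guard Bcl-xL, came next at 142 ± 32.3 CPM per kb and ranked between 339 and 557. Bax stood at 5.43 ± 1.84 and Bcl2l11, the gene of the BH3-only protein Bim, at 2.24 ± 0.234 CPM per kb. The ranges of Bcl2l10 (4191 to 6843), Bcl2l1 (97.1 to 195) and Bax (2.39 to 8.40 CPM per kb) over the 9 libraries did not overlap. Those of Bax and Bcl2l11 (1.84 to 2.499) did. The order of these neighbours rests on transcript length: with the shortest coding transcript of each gene in place of the longest, Bcl2l11 was at 16.8 and Bax at 5.87 CPM per kb.

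**Figure D1:**
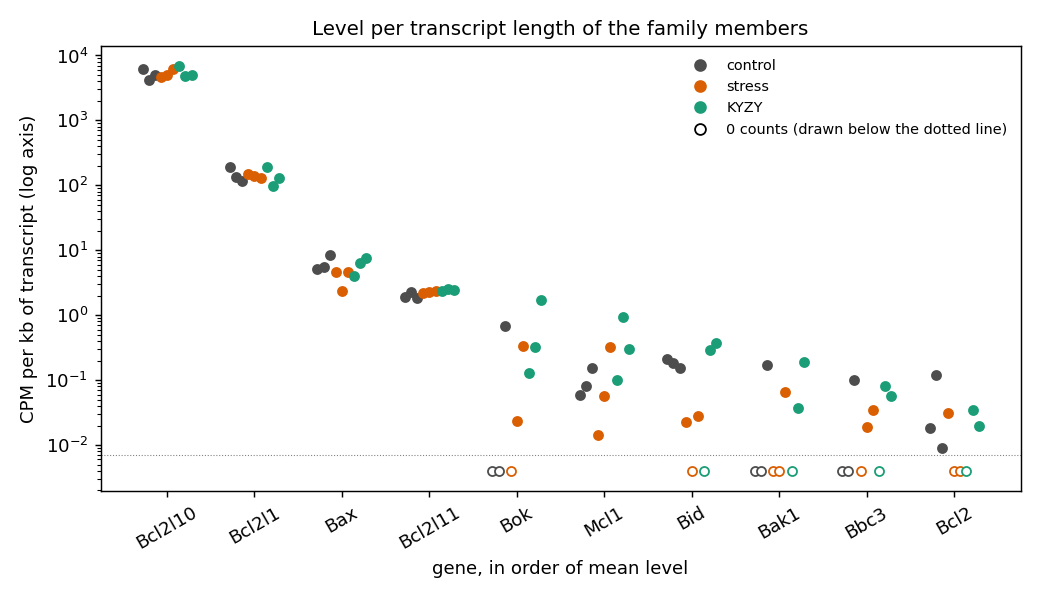
Level of the 10 family members in CPM per kb of their longest coding transcript on a log axis, 1 point per library, coloured by group, with libraries at 0 counts drawn as open points below the dotted line. Bcl2l10 lies between 4191 and 6843 and Bcl2l1 between 97.1 and 195 in all 9 libraries, while 5 of the 6 lowest members have libraries at 0.

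The other 6 members had lower means, and each was below the floor in some library. Mcl1 was at or above it in 8 libraries and reached 3.19 CPM. Bok was at or above it in 5 and reached 2.51 CPM. Bok was at 0.357 ± 0.558, Mcl1 at 0.225 ± 0.287, Bid at 0.141 ± 0.137, Bak1 at 0.0510 ± 0.0759, Bbc3 at 0.0323 ± 0.0386 and Bcl2 at 0.0260 ± 0.0379 CPM per kb (SD, n = 9). Neighbours in this order did not differ beyond their spread. Libraries at 0 counts numbered 3 for Bok, 2 for Bid, 5 for Bak1, 4 for Bbc3, 3 for Bcl2 and 0 for Mcl1. Of the family's summed level per kb, Bcl2l10 made up 97.03 ± 0.386% in control, 97.3 ± 0.538% in stress and 97.4 ± 0.366% in KYZY, and Bcl2l1 2.79 ± 0.426%, 2.62 ± 0.529% and 2.38 ± 0.401% (SD, n = 3 each). The share of Bax was 0.124 ± 0.0424% in control, 0.0728 ± 0.0256% in stress and 0.111 ± 0.0487% in KYZY, a description with no test.

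Among the guards, Bcl2l10 (chromosome 9, 75347758 to 75351632 on GRCm38) was at 7629, 5113 and 6062 CPM in control 1, 2 and 3, at 5669, 6139 and 7515 in stress 1, 2 and 3, and at 8349, 5985 and 6072 in KYZY 1, 2 and 3. All 3 groups overlapped, and the highest and lowest libraries differed 1.63-fold. Group means were 6268 ± 1271 CPM in control, 6441 ± 959 in stress and 6802 ± 1340 in KYZY (SD, n = 3). The log2 fold change was 0.04 with an SE of 0.299 in stress against control, and its 95% interval ran from a fold of 0.648 to 1.63 (edgeR, adjusted p = 1.00). In KYZY against stress it was 0.08 (fold 0.666 to 1.67, edgeR adjusted p = 0.977), and in KYZY against control 0.12 (fold 0.685 to 1.72, edgeR adjusted p = 0.996). All 3 intervals lie within a fold of 0.648 to 1.72. The values without single libraries lay between -0.10 and 0.28 over the 3 comparisons, and their sign changed without control 2 (-0.10) or stress 3 (-0.09) in stress against control and without KYZY 1 in KYZY against stress (-0.10) and against control (-0.06).

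The coefficient of variation of Bcl2l10 over the 9 libraries was 16.4%, beside a median of 26.9% in the 162 genes with a mean of at least 1000 CPM. Its pattern over the libraries was most like those of Chek1, a checkpoint kinase (Pearson r = 0.965 over 9 libraries), Rnf141 (0.956) and Nup35, a nucleoporin (0.955), among 5114 genes with a mean of at least 10 CPM. The points share the scaling by library total, and these genes were found by search.

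Bcl2l1 (chromosome 2, 152780668 to 152831728) was at 501, 340 and 302 CPM in control 1, 2 and 3, at 386, 352 and 336 in stress, and at 491, 249 and 328 in KYZY. The 3 groups overlapped, and the stress libraries lay closest together. Group means were 381 ± 105, 358 ± 25.9 and 356 ± 123 CPM in control, stress and KYZY (SD, n = 3). The log2 fold changes were -0.09 (fold 0.596 to 1.48) in stress against control, -0.01 (0.630 to 1.57) in KYZY against stress and -0.10 (0.592 to 1.48) in KYZY against control, with adjusted p of 1.00, 0.997 and 0.996 (edgeR). Without control 1 the value was 0.16 in stress against control and 0.15 in KYZY against control, and without KYZY 2 it was 0.19 in KYZY against stress and 0.10 in KYZY against control. Bcl2l1 was the member that was lower, not higher, in the 4 libraries with most cumulus markers: 249 to 336 CPM against 340 to 501 in the other 5. Its closest patterns were Mea1 (r = 0.957), Syce2, a protein of the synaptonemal complex (0.954), and Cltb, a clathrin light chain (0.948).

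Bcl2l10 exceeded Bcl2l1 in every library. The ratio of their levels per kb was 35.3 ± 6.05 in control, 38.2 ± 8.23 in stress and 41.8 ± 7.76 in KYZY (SD, n = 3). The lowest library was stress 1 at 30.9 and the highest KYZY 2 at 50.5, so the ratio was spread as widely within groups as between them.

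Mcl1 and Bcl2, guards that are abundant in many other cells, were scarce here. Mcl1 (chromosome 3, 95658788 to 95663176) was at 0.198, 0.277 and 0.521 CPM in control 1, 2 and 3, at 0.0491, 0.192 and 1.12 in stress, and at 0.347, 3.19 and 1.04 in KYZY. The highest 4 values were those of KYZY 2, stress 3, KYZY 3 and control 3, the libraries with most cumulus markers, at 0.521 to 3.19 CPM against 0.0491 to 0.347 in the other 5. The part of other cells in this was not tested. The log2 fold change was 0.43 with an SE of 1.07 in stress against control, 1.76 with an SE of 1.09 in KYZY against stress and 2.19 with an SE of 1.11 in KYZY against control, with adjusted p of 1.00, 0.935 and 0.996 (edgeR). Stress against control turned to -1.44 without stress 3 and to -0.96 without the 4 libraries. The DESeq2 Wald test gave KYZY against control an unadjusted p of 0.0382 and an adjusted p of 1.00. KYZY against stress was 0.62 without KYZY 2 and 3.63 without stress 3, and KYZY against control was 1.05 without KYZY 2 and 0.57 without the 4 libraries.

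Bcl2 (chromosome 1, 106538178 to 106714274) had counts of 8, 91 and 5 in control 1, 2 and 3, of 18, 0 and 0 in stress, and of 0, 17 and 7 in KYZY. These are 0.132, 0.869 and 0.0651, then 0.221, 0 and 0, then 0, 0.250 and 0.143 CPM. A single library in each group, namely control 2, stress 1 and KYZY 2, was above the floor. The log2 fold changes of -2.26, 0.82 and -1.44 in stress against control, KYZY against stress and KYZY against control had SEs of 2.07, 2.02 and 2.02. A difference in Bcl2 was not resolved at this spread between libraries. Without control 2 the first was -0.41 and the third 0.42, and without KYZY 2 the second was -0.06. Without stress 1, when stress is at 0 and values depend on the count added in the fit, the first was -7.74 (edgeR, unadjusted p = 0.0310, adjusted p = 1.00) and the second 6.33 (edgeR, unadjusted p = 0.0534, adjusted p = 1.00). An antisense gene, D630008O14Rik, overlaps its exons on the other strand, and the library kit keeps no strand information.

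Among the pore formers, Bax, whose protein moves to mitochondria when guards are overcome, was the one read in every library. It was at 4.48, 4.80 and 7.28 CPM in control 1, 2 and 3, at 4.06, 2.08 and 4.08 in stress, and at 3.44, 5.45 and 6.67 in KYZY. The 3 stress libraries were below the 3 control libraries without overlap, while KYZY overlapped both. Means were 5.52 ± 1.53 CPM in control, 3.41 ± 1.15 in stress and 5.19 ± 1.63 in KYZY (SD, n = 3). The log2 fold change was -0.70 with an SE of 0.361 in stress against control (fold 0.354 to 1.07), and the difference did not pass the test over all genes (edgeR, unadjusted p = 0.0811, adjusted p = 1.00). It was 0.61 with the same SE in KYZY against stress (fold 0.875 to 2.65, edgeR adjusted p = 0.935) and -0.09 in KYZY against control (fold 0.541 to 1.63, edgeR adjusted p = 0.996). The stress libraries enter both of the first comparisons.

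Values without single libraries were -0.86 to -0.44 for Bax in stress against control and 0.37 to 0.83 in KYZY against stress. With replicate numbers as a block in control and stress, the first was -0.73 (edgeR, unadjusted p = 0.0376, adjusted p = 1.00). Without the 4 libraries with most cumulus markers, stress against control was -0.58 and KYZY against stress, with KYZY 1 alone in its group, 0.18. In KYZY against control the value was 0.19 without control 3 and 0.13 without KYZY 1. Bax reached 4.08 to 7.28 CPM in the 4 libraries and 2.08 to 4.80 in the other 5, and the part of other cells was not tested. Its highest values, 7.28 and 6.67 CPM, were those of control 3 and KYZY 3, the libraries with most stromal markers, and the other 7 were at 2.08 to 5.45. Without control 3 and KYZY 3 the log2 difference of Bax was -0.44 in stress against control, 0.41 in KYZY against stress and -0.03 in KYZY against control. The predicted gene Gm45808 overlaps exons of Bax on the same strand. The patterns most like Bax were those of Gmfb (r = 0.892), Enah, an actin regulator (0.881), and Exosc9, an exosome subunit (0.867).

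Bax was above the floor in each library and Bok in 5 of 9, so the 250 bases before their RefSeq start sites are shown (GRCm38.p6, read 5′ to 3′ on the gene's strand). The Bax stretch is chr7:45466899-45467148 on the minus strand and the Bok stretch chr1:93685325-93685574 on the plus strand. Capitals mark the GC box GGGCGG on either strand.
Bax: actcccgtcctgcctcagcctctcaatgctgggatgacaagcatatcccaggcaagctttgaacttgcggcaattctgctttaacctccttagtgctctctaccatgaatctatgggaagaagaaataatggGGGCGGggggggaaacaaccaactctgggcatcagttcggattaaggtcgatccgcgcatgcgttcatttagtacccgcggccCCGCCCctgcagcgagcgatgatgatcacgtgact
Bok: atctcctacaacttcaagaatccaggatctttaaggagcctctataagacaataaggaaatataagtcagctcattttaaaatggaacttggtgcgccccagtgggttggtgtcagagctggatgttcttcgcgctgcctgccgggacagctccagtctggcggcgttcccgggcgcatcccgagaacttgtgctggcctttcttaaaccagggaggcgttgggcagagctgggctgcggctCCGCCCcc
The GC box occurred at 2 places before Bax and 1 before Bok. Of 32817 RefSeq promoters of the same length, 32.7% held at least 1. The E-box CANNTG was found at 1 place before Bax and 0 before Bok, and 66.2% of promoters held it. The boxes CCAAT and TATAAA, which 33.8% and 12.4% of promoters held, were at 0 places in both. CpG pairs numbered 14 before Bax and 12 before Bok, more than in 70.7% and 66.5% of promoters. These matches describe letters only, and no binding or methylation was measured. The table held a start site for 9 of the 10 members and none for Bcl2l10.

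Bok, a pore former known to be kept low by degradation of its protein, was at 0, 0 and 1.02 CPM in control 1, 2 and 3, at 0, 0.0349 and 0.497 in stress, and at 0.190, 0.470 and 2.51 in KYZY. The 4 highest were KYZY 3, control 3, stress 3 and KYZY 2, at 0.470 to 2.51 CPM, and the other 5 were at 0 to 0.190. Control 3 and KYZY 3, with most stromal markers, held the top values, and the part of other cells was not tested. The groups overlapped. Log2 fold changes were -0.95 with an SE of 2.19 in stress against control, 2.59 with an SE of 2.28 in KYZY against stress and 1.63 with an SE of 2.19 in KYZY against control (edgeR, adjusted p = 1.00, 0.935 and 0.996). The first turned to 6.72 without control 3, when the remaining control libraries are at 0 and the value depends on the count added in the fit (edgeR, unadjusted p = 0.0497, adjusted p = 1.00), and to 3.73 without the 4 libraries, and the third to -0.05 without KYZY 3. The second was 0.94 without KYZY 3 and 5.71 without stress 3. Without control 3 and KYZY 3, with control at 0, the 3 values were 6.80, 0.94 and 7.74. Its closest patterns were Ncoa6, a nuclear receptor coactivator (r = 0.981), Prkci (0.968) and Cog3 (0.963).

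Bak1, the partner of Bax at the mitochondrial membrane, held 31 counts in control 3, 10 in stress 3, 6 in KYZY 2 and 22 in KYZY 3, and 0 in the other 5 libraries. In CPM these were 0.404, 0.155, 0.0881 and 0.449. Control 3 and KYZY 3, the libraries with most stromal markers, were above the floor, and the gene was not tested. The 4 libraries with reads were exactly those with most cumulus markers, and the part of other cells was not tested. Ggnbp1 overlaps Bak1 on the other strand.

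Of the 8 members tested, Bok and Mcl1 were higher and Bcl2l1 lower in these 4 libraries without overlap, and the untested Bak1 and Bbc3 were higher as well. Among all 13890 genes tested, 17% did not overlap between the 4 libraries and the other 5 (9.94% higher, 7.09% lower).

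**Figure D2:**
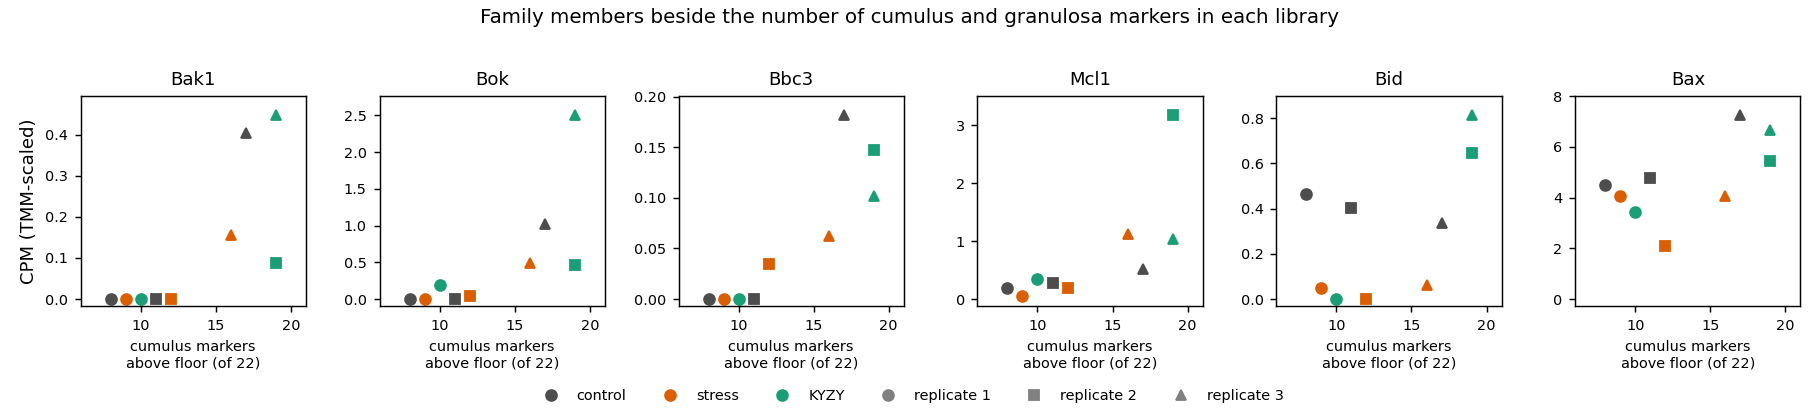
CPM of 6 members (vertical axis, linear) against the number of 22 cumulus and granulosa markers above the floor (horizontal axis), 1 point per library, with groups by colour and replicate numbers by shape. Bak1 is at 0 in the 5 libraries with 8 to 12 markers, while Bid is at 0.339 to 0.463 CPM in all 3 control libraries.

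Among the BH3-only genes, Bcl2l11, whose protein Bim binds the main guards, varied least of the 10 members, with a coefficient of variation of 10.5% beside a median of 21.3% in the 3820 genes between 10 and 100 CPM. It was at 9.52, 11.3 and 9.26 CPM in control 1, 2 and 3, at 11.1, 11.3 and 11.9 in stress, and at 12.0, 12.6 and 12.4 in KYZY. The KYZY libraries were above all the others, with no overlap, while stress and control overlapped. Means were 10.03 ± 1.11, 11.4 ± 0.391 and 12.3 ± 0.291 CPM in control, stress and KYZY oocytes (SD, n = 3). Log2 fold changes were 0.19 in stress against control (SE 0.181, fold 0.864 to 1.51), 0.11 in KYZY against stress (fold 0.817 to 1.42) and 0.30 in KYZY against control (fold 0.932 to 1.63), with adjusted p of 1.00, 0.955 and 0.996 (edgeR). Values without single libraries kept these directions, at 0.14 to 0.27, 0.09 to 0.14 and 0.26 to 0.40. Its closest patterns were Sh3rf3 (r = 0.829), Ric1 (0.821) and Arid2, a subunit of a chromatin remodelling complex (0.785).

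Bid, whose protein is cut by caspase 8 and carries the death receptor signal to mitochondria, showed the widest gap between control and stress. Its counts were 28, 42 and 26 for control 1, 2 and 3, then 4, 0 and 4 for stress, and 0, 44 and 40 for KYZY. In CPM these were 0.463, 0.401 and 0.339 in control, 0.0491, 0 and 0.0621 in stress, and 0, 0.646 and 0.816 in KYZY. All 3 control libraries were above the floor and all 3 stress libraries below it, without overlap, and in KYZY the first library had no read while the other two were the highest of the 9. Over the groups, 96 counts in control stood against 8 in stress, about 24 and 2 read pairs. Their ratio per library total was 12.9, with an exact 95% interval of 3.21 to 113 that covers counting error only and not the spread between mice. For KYZY against stress, with 84 counts or about 21 read pairs, all from KYZY 2 and 3, the ratio was 15.2 (3.71 to 133). Both intervals were made for Bid alone, the member with the widest gap between control and stress, and test no difference.

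Neither difference in Bid passed the test over all genes. The fitted log2 fold change was -3.42 with an SE of 1.69 in stress against control (edgeR, unadjusted p = 0.0701, adjusted p = 1.00), 3.70 with an SE of 1.71 in KYZY against stress (unadjusted p = 0.0554, adjusted p = 0.935) and 0.28 with an SE of 1.51 in KYZY against control (adjusted p = 0.996). Values without single libraries were -4.002 to -2.82 in the first and 3.12 to 4.29 in the second. In the third the value was -0.29 without KYZY 3. The DESeq2 Wald test gave unadjusted p of 0.0236 and 0.0132 for the first and second, with adjusted p of 1.00 and 0.625. The high KYZY libraries were those with most cumulus markers, and without the 4 such libraries KYZY against stress turned to -4.09 and KYZY against control to -8.19, where KYZY 1 stands alone with 0 reads and the value depends on the count added in the fit. Stress against control was -4.10 there. Bid in control was as high in control 1 and 2, with 8 and 11 markers above the floor, as in control 3 with 17. What part other cells had in Bid was not tested.

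Bbc3, the gene of the p53 target Puma, held at most 14 counts, in control 3, and was not tested. It was at 0.182 CPM there, at 0.147 in KYZY 2, 0.102 in KYZY 3, 0.0621 in stress 3 and 0.0349 in stress 2, and at 0 in the other 4 libraries. Control 3 alone was above the floor.

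**Figure D3:**
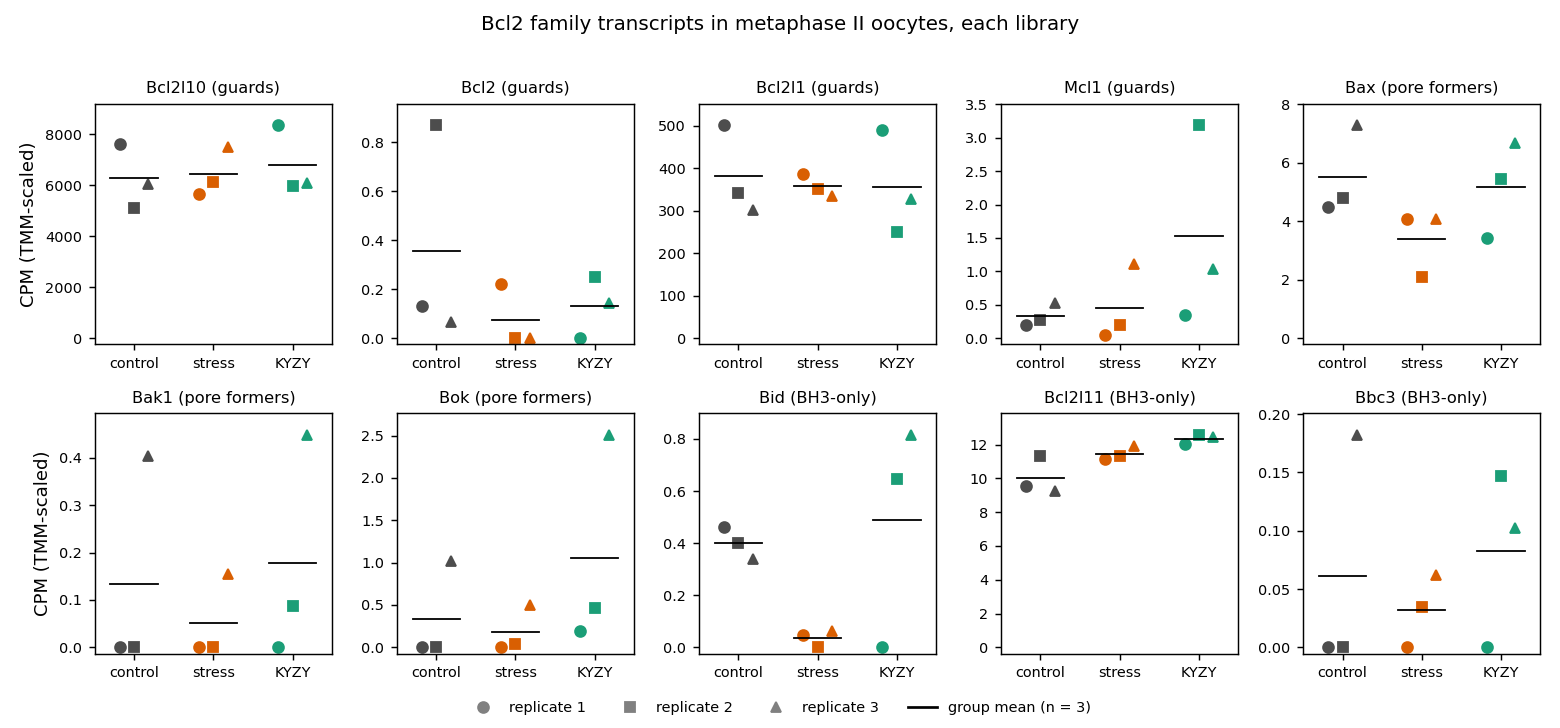
CPM of each member in each of the 9 libraries (linear axes), with replicate numbers by shape and the group mean as a bar. Bax and Bid have their stress libraries below all control libraries, and Bcl2l11 has its KYZY libraries, at 12.0 to 12.6 CPM, above the rest.

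The comparisons between groups asked whether stress alters transcripts that bear on oocyte quality and whether the recipe alters them in stressed mice. Over all 13890 genes, 0 were called in each comparison at an adjusted p of 0.05 (edgeR), which is 0% of genes, and 0 of the 8 tested members were. At an unadjusted p of 0.05, edgeR counted 2.69% of genes in stress against control, 3.98% in KYZY against stress and 2.74% in KYZY against control, and 0 members in each. DESeq2 called 23, 12 and 1 genes in the same order (0.141%, 0.0848% and 0.0053% of genes with an adjusted p), of which 0 were members.

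In stress against control, 3 members were higher and 5 lower (46% of all genes were higher), at a median log2 difference of -0.39 beside -0.03 over all genes. Groups did not overlap for Bax and Bid, both lower, where 7.88% of all genes did not overlap (3.51% higher and 4.38% lower). In KYZY against stress 7 members were higher and 1 lower (50.8% of all genes were higher), with a median of 0.71 beside 0.01, and Bcl2l11 was the member without overlap (9.19% of all genes, 3.76% higher and 5.44% lower). In KYZY against control 5 were higher and 3 lower (49.7% of all genes were higher), with a median of 0.20 beside -0.0032, and Bcl2l11 was again the member without overlap (7.23% of all genes, 2.43% higher and 4.79% lower). The comparisons share libraries pairwise. Of the 19 cumulus and granulosa markers tested, 9 had higher values in stress than in control (median -0.15), 18 higher in KYZY than in stress (median 2.07) and 17 higher in KYZY than in control (median 1.73). Of 9 stromal and endothelial markers, 2, 7 and 8 were higher in the same order (medians -2.21, 2.24 and 0.23), of 8 oviduct markers 2, 5 and 6 (medians -0.65, 1.24 and 0.54), and of 7 blood and immune markers 3, 6 and 5 (medians -0.37, 1.64 and 1.17). The part of these cell types in the members' medians was not tested. The 95% intervals of Bcl2, Mcl1, Bok and Bid spanned 4.77 to 10.4 log2 units, and those of Bcl2l10, Bcl2l1, Bax and Bcl2l11 spanned 0.80 to 1.60.

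**Figure D4:**
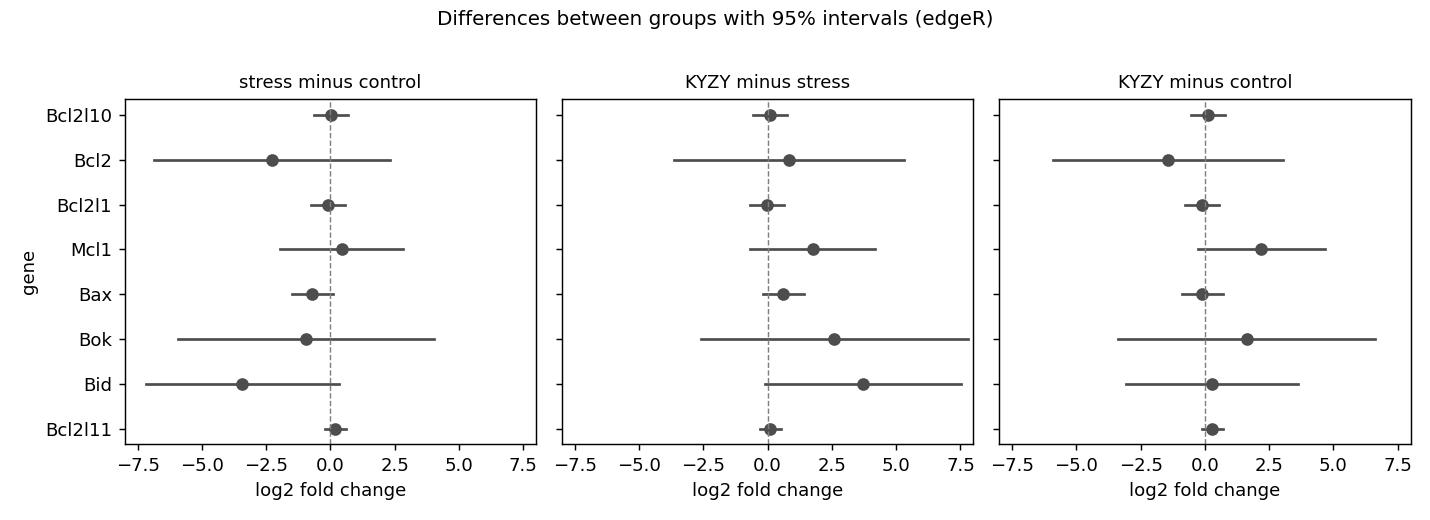
Log2 fold change of the 8 tested members in the 3 comparisons, as points with 95% intervals from the edgeR fit and a dashed line at 0. Intervals are narrow for Bcl2l10, Bcl2l1, Bax and Bcl2l11 and wide for Bcl2, Mcl1, Bok and Bid, and all of them include 0.

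Ratios of guard transcripts to Bax transcripts can be given per library, and protein levels are not in these data. The ratio of Bcl2l10 to Bax per kb stood at 1210, 758 and 592 in control 1, 2 and 3, at 992, 2101 and 1308 in stress, and at 1723, 781 and 647 in KYZY. The groups overlapped, at means of 853 ± 320, 1467 ± 571 and 1050.3 ± 587 (SD, n = 3). Bcl2l1 to Bax was 25.2 ± 11.9 in control, 39.05 ± 15.9 in stress and 26.7 ± 18.5 in KYZY. Transcripts of both guards outnumbered those of Bax per kb in every library, by at least 13.99-fold for Bcl2l1.

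Other Bcl2 family genes held a few of middle abundance. Of 16 listed, 15 were in the tables and 10 were tested, with 0 called in each comparison. In stress against control 4 were higher and 6 lower (median log2 fold change -0.06), in KYZY against stress 6 and 4 with 0.90, and in KYZY against control 5 and 5 with 0.02. Bnip3l, a mitophagy receptor, was at 105 to 167 CPM, and Bcl2l13, another mitochondrial member, at 55.6 to 103 CPM. Bad, a BH3-only gene regulated by survival kinases, was at 0.480, 0.115 and 1.46 CPM in control, 0.343, 0.349 and 0.124 in stress and 0.474, 0.925 and 1.45 in KYZY 1, 2 and 3. Its KYZY libraries were above the stress libraries without overlap (log2 fold change 1.79, SE 0.909, edgeR adjusted p = 0.935), as were those of the BH3-only gene Pmaip1. Bik, another BH3-only gene, was at 9.40 CPM in KYZY 1 and at 1.26 to 3.93 in the other 8 libraries, with a log2 fold change of 1.13 (SE 0.563, edgeR adjusted p = 0.935) in KYZY against stress and 1.18 (SE 0.564, edgeR adjusted p = 0.996) in KYZY against control. Bcl2l15, of little known function, was at 0 to 0.833 CPM, with a log2 fold change of -1.74 (SE 1.36) in stress against control. Bcl2l2, the guard Bcl-w, was at 0.182 to 0.617 CPM, with a log2 fold change of 0.66 (SE 0.796) in KYZY against control. The genes Bcl2a1a, Bcl2a1d and Bcl2l14 had 0 counts in all 9 libraries.

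A list of genes around mitochondrial release and caspase activation held 18 genes, all tested, and 0 were called. In stress against control 13 were higher and 5 lower (median 0.15), in KYZY against stress 9 and 9 (median 0.02) and in KYZY against control 6 and 12 (median -0.06). Tmbim6, an inhibitor of Bax in the endoplasmic reticulum, was at 140, 95.4 and 128 CPM in control and 160, 141 and 164 in stress without overlap (log2 fold change 0.36, SE 0.244), and at 213, 153 and 128 in KYZY. Vdac1, a channel of the outer membrane, was at 47.2 to 89.6 CPM. Htra2, a protease released from mitochondria, was at 17.1 ± 1.13 CPM in stress and 10.6 ± 1.18 in KYZY (SD, n = 3) without overlap, with a log2 fold change of -0.68 and an SE of 0.194 (edgeR, unadjusted p = 0.00523, adjusted p = 0.935). Control was at 13.8 ± 2.05 CPM, also above KYZY without overlap (log2 fold change -0.38, SE 0.193, edgeR adjusted p = 0.996), and stress against control was 0.31 (SE 0.193). Casp8, the caspase that cuts Bid, was at 4.69 ± 2.497 CPM in control and 2.86 ± 0.998 in stress. These groups overlapped (log2 fold change -0.71, SE 0.460, edgeR unadjusted p = 0.151). Casp8 was highest in control 3 (7.55 CPM) and KYZY 3 (7.12), the libraries with most stromal markers, and at 1.88 to 4.03 in the rest. The part of other cells was not tested. Diablo, which relieves caspase inhibition, was at 14.5 ± 3.18 CPM in KYZY and 9.53 ± 2.44 in control (log2 fold change 0.61, SE 0.278, edgeR adjusted p = 0.996).

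Regulators of the family were all 22 tested, and 0 were called. In stress against control 12 were higher and 10 lower (median 0.04), in KYZY against stress 6 and 16 (median -0.05) and in KYZY against control 12 and 10 (median 0.03). Foxo3, a transcription factor that can induce Bcl2l11 and Bbc3, was at 1351 to 2239 CPM. Usp9x, a deubiquitinase that stabilises Mcl1 protein, was at 369 to 1804 CPM, with a log2 fold change of 0.60 (SE 0.456) in stress against control. Huwe1, a ubiquitin ligase of Mcl1 protein, was at 55.1, 51.5 and 79.0 CPM in control, 85.8, 80.2 and 118 in stress and 69.5, 95.1 and 94.8 in KYZY. Its stress libraries were above control without overlap, with a log2 fold change of 0.62 and an SE of 0.247 (edgeR, unadjusted p = 0.0313, adjusted p = 1.00), and KYZY against control was 0.48 (SE 0.247, edgeR adjusted p = 0.996). Trp63, the guardian of the oocyte genome that can induce Bbc3, was at 2.68 ± 0.446 CPM in KYZY and 4.08 ± 1.19 in control (log2 fold change -0.61, SE 0.311, edgeR adjusted p = 0.996). Tpt1, which encodes a protein that binds Mcl1, was at 483 ± 293 CPM in KYZY and 216 ± 118 in stress (log2 fold change 1.16, SE 0.723, edgeR adjusted p = 0.935). Tpt1 was at 351 to 702 CPM in the 4 libraries with most cumulus markers and at 100.4 to 167 in the other 5, KYZY 1 among them, and the part of other cells was not tested. Becn1, whose protein binds Bcl2, differed by 0.26 (SE 0.215) between the same groups. Fbxw7, another ubiquitin ligase of Mcl1, was higher in stress than in control and Atm higher in KYZY than in control without overlap, with log2 fold changes of 0.30 (SE 0.279) and 0.35 (SE 0.311).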

How the data were processed

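Each of 9 libraries came with 1 deposited table of expected counts, whole-number estimates of reads per gene. The unit, and that the values are not scaled to a common total, were read from the values. Per the submitters' processing notes DESeq2, StringTie, HISAT2, Trim Galore and bcl2fastq 2.20 were used, with GRCm38 and mm10 as builds; roles, order, settings and other versions are not given in the sources used here. The kit copies RNA through poly(A) tails, so values follow polyadenylated RNA, and it keeps no strand. The fit used edgeR 4.0.16 under R 4.3.3: TMM scaling, filterByExpr (minimum count 10, minimum total 15; 13890 genes kept, 10846 dropped), a robust quasi-likelihood fit of all 9 libraries with 1 mean per group and 6 residual degrees of freedom, 2-sided tests and Benjamini-Hochberg adjustment over all genes tested, at 0.05. The common biological coefficient of variation was 0.611. The test was checked on data drawn with known fold changes. Intervals are 95% intervals of the fit. The floor was 3 read pairs or 12 counts. Lengths and positions came from GENCODE M21 on GRCm38 for 24204 of 24736 symbols (97.85%), using the longest coding transcript, and promoters from RefSeq on GRCm38.p6.

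Bak1 and Bbc3 did not pass the filter. A member that passes only through a group where it is high has to differ there. That held for Bid in the fit of control and stress alone, where its stress counts were 4 at most. With counts divided by 4, about the worth of 1 read pair, 5 members passed the filter, and Bcl2, Bok and Bid did not. All 10 members were named by rule; of 3 lists of related genes, the 2 most abundant, the 2 of smallest p in each comparison and those without overlap were named, except 1 that is not reported here. Members and lists were chosen with earlier results of these data known. Control and stress libraries of the same number deviated from their group means together (r = 0.185 to 0.346 over 3 pairs). Those of unlike number had r of -0.407 to 0.233, which overlaps, so a pairing by number is not established. It was taken from the data and not from the labels, and was used only in the replicate block. The labels name 1 mouse per library, and p-values measure the spread between mice. Alternatives were DESeq2 1.42.0, its size factors, no filter, fits of 2 groups, a replicate block, counts divided by 4 and leaving out libraries.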

Additional observations from a re-analysis of the deposited data

How the results depend on the processing

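All 402 refits of members left 0 of them called, the lowest adjusted p being 0.482, and 39 had the opposite sign. Of genes called in stress against control, KYZY against stress and KYZY against control, DESeq2 gave 23, 12 and 1, and edgeR without control 3, stress 3, KYZY 2 and KYZY 3, chosen after seeing the data, 148, 115 and 119 (KYZY 1 is then alone and assumed to vary like the others). Without control 3 and KYZY 3, also chosen after seeing the data, 6, 2 and 5 genes were called. Fits of only the 2 groups compared gave 1 in KYZY against stress. A replicate block over 9 libraries gave 0 in each comparison, and one in control and stress, added after seeing the data, gave 1. Leaving out single libraries gave 0 to 2, 0 to 1 and 0 to 3 genes, the highest each without control 3. The causes were not tested.

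Without the 4 libraries, signs turned for Bcl2l10 (-0.10), Bok (3.73) and Mcl1 (-0.96) in stress against control, for Bcl2 (-6.24), Bcl2l1 (0.43) and Bid (-4.09) in KYZY against stress, and for Bcl2l1 (0.25) and Bid (-8.19) in KYZY against control. Without control 3 and KYZY 3, Bok in stress against control was 6.80, Bcl2l1 in KYZY against stress 0.070 and Bid in KYZY against control -0.38. With the replicate block Mcl1 in stress against control was -0.21, and -0.39 in control and stress alone. Bcl2l1 in KYZY against stress turned to 0.028 with DESeq2 size factors, 0.0025 with no filter, 0.026 with DESeq2, 0.021 with 2 groups and 0.016 with counts divided by 4.

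Leaving out single libraries gave ranges across 0. In stress against control these were -0.10 to 0.20 for Bcl2l10, -0.23 to 0.16 for Bcl2l1, -1.44 to 0.95 for Mcl1 and -4.08 to 6.72 for Bok. In KYZY against stress they were -0.10 to 0.20 for Bcl2l10, -0.31 to 0.19 for Bcl2l1 and -0.064 to 6.33 for Bcl2. In KYZY against control they were -0.061 to 0.28 for Bcl2l10, -0.40 to 0.15 for Bcl2l1, -2.32 to 0.42 for Bcl2, -0.30 to 0.19 for Bax, -0.29 to 0.86 for Bid and -0.048 to 9.34 for Bok. In every setting that tested them, Bcl2l11 kept its direction in each comparison, and Bax, Bid and Bcl2 did in stress against control. So did Bax, Mcl1 and Bok in KYZY against stress, and Mcl1 in KYZY against control. With 3 mice a group and 0 to 3 read pairs in many libraries, differences in Bcl2, Bak1, Bbc3, Bok and Bid were not resolved.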
